A study of Mus musculus with 6 samples.

Results

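The immunoglobulin light chain gene segments are the pieces of DNA from which a B cell assembles the light chain of its antigen receptor. They were chosen by symbol, as all genes whose name starts with Igkv, Igkj, Igkc, Iglv, Iglj or Iglc, which gave 180 of the 49943 genes of the mm10 gene table on chromosomes 1 to 19, X and Y. The kappa locus held 168 of them, namely 162 V segments (60 marked as pseudogenes), 5 J segments and the single constant segment Igkc, between 67555636 and 70726754 on chromosome 6 (3.17 Mb). The lambda locus held the other 12, namely 3 V, 5 J and 4 C segments including pseudogenes, between 19061752 and 19260844 on chromosome 16 (199 kb).

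Open chromatin was measured by ATAC-seq, in which a transposase cuts accessible DNA, in immature B cells (B220+CD93+) sorted from the spleen of Tcrd-GDL mice. All 6 libraries came from this strain, a reporter line in which γδ T cells can be removed with diphtheria toxin (DTx). The 3 untreated libraries received none, and the 3 DTx libraries came from mice injected into the peritoneum 2 times with 48 h between, each time with 15 ng of DTx for every gram the mouse weighed, and taken on day 8 after the first injection. Age and sex are not given in the labels, and the labels number the libraries without saying whether each came from a separate mouse, so the spread between them may be technical. In bulk cells, fewer cells with an open site and less opening per cell cannot be told apart. The comparison asks how these loci look with and without γδ T cells, and the design does not tell depletion apart from other effects of the toxin.

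In a developing B cell the V(D)J recombinase joins a V segment to a J segment, at the kappa locus first and at the lambda locus mostly when kappa joining has failed or is replaced. Joining at kappa deletes or inverts the DNA between the V and J segments that are joined. Enhancers between the J segments and Igkc and beyond Igkc drive transcription and joining, and elements in the gap between the V and J segments influence which V segments are used. V segment promoters carry an octamer motif that is bound by POU-domain factors. Mature mouse B cells use kappa chains far more often than lambda chains.

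Of the 180 segment symbols, 0 matched the RefSeq promoter table (GRCm38.p6, 250 bases before to 50 bases after a gene start). The table holds windows for other transcripts inside the 2 loci, and the pair that contained the octamer are shown here because peaks lay over both. LOC108169192, a long non-coding RNA among the kappa V segments, has its window at chr6:68880650-68880949 on the minus strand. Gm35545, a long non-coding RNA whose body spans Iglv3, has its window at chr16:19218252-19218551 on the plus strand. The capitals mark the octamer ATGCAAAT, read here on the opposite strand.
LOC108169192: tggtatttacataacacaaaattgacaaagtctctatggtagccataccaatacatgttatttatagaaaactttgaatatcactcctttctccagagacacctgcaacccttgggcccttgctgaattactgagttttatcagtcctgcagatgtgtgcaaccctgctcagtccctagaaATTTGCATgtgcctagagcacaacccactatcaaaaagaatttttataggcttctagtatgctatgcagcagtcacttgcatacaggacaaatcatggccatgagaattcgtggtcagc
Gm35545: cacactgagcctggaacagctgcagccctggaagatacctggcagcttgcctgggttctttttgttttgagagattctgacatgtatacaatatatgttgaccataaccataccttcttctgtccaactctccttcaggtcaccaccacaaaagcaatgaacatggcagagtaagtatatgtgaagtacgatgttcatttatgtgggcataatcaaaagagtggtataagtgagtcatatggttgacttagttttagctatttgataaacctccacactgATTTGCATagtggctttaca

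A peak lay over the LOC108169192 window in 1 untreated and 2 DTx libraries and over the Gm35545 window in 2 untreated and 3 DTx libraries. The octamer was searched on both strands and stood in 1.74% of all 32851 promoter windows of the table. As both windows were picked for holding it, they cannot be set against that share. The other windows inside the loci lacked it, among them that of Gm46961, with a peak in 1 untreated and 1 DTx library. The recombination signal heptamer CACAGTG and nonamer ACAAAAACC and the kappa B site GGGACTTTC, searched the same way, were in neither window, and they stood in 6.81%, 0.371% and 0.353% of all windows. A match is a description of these letters and does not show binding.

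The deposited data are 1 list of peaks per library, called on each library alone, with 36760, 42504 and 56503 peaks in the untreated and 44661, 56266 and 60811 in the DTx libraries. Untreated replicate 3 and DTx replicate 1 have the layout of the peak caller's narrow mode and the other 4 lists that of its broad mode. Read totals are not given, so the depth is unknown. The strength of a peak is given as its percentile of −log10 q within its own list, so that a typical peak stands near the middle of its list and strengths are not compared between libraries. Equal-length lists hold the 36760 strongest peaks of each library, which cuts the lists at a −log10 q between 1.02 in untreated replicate 1 and 19.7 in untreated replicate 3. The B lineage markers Cd79a, Cd79b, Ms4a1, Pax5, Ebf1, Cd93 and Ptprc each had a peak within 1 kb of a gene end in all 6 libraries. Of the 8 T cell markers, Cd3e, Cd8a, Trac, Trbc1 and Trdc had none in any library and Cd3d had one in all 6. All 4 plasma cell markers and the erythroid markers Klf1 and Hbb-bt had one in all 6, while Gata1 and the myeloid markers Lyz2 and Adgre1 had none. None of the 5 myeloid markers had one in all 6 libraries. Itgam had one in 2 untreated and 3 DTx libraries, at the 31.7th to 62.7th percentile. Cd14 had one in 2 and 3 libraries and Csf1r in 3 and 1. Among the T cell markers Cd4 had one in 2 and 2 and Cd3g in 0 and 1, and the erythroid marker Epor in 2 and 3. The part of other cells in the values below was not tested.

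A light chain segment counted as called in a library when a peak lay within 1 kb of it. In the deposited lists 42 of the 180 segments (23.3%) were called in all 6 libraries, 64 (35.6%) in some and 74 (41.1%) in none. Of all genes of the table, 28.6% had a peak within 1 kb of a gene end in all 6 libraries and 62.4% in none. Of the 12241 genes of at most 1 kb that are not light chain segments, 6.87% were called in all 6 libraries and 88.0% in none. The same 2 shares were 2.79% and 86.5% for the 215 heavy chain segments and 1.85% and 91.1% for the 270 T cell receptor segments. The share of light chain segments called per library lay between 26.7% and 55.0%. It was between 4.65% and 9.77% for heavy chain and between 2.22% and 6.67% for T cell receptor segments, and the light chain share was above both in 6 of 6 libraries. In the equal-length lists 27 light chain segments (15.0%) were called in all 6 libraries and 101 (56.1%) in none, against 26.6% and 66.5% of all genes. Neighbouring segments can share a peak, and the 99 segments called in DTx replicate 3 had 93 different strongest peaks.

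V segments not marked as pseudogenes, called intact here, carried peaks more often than pseudogenes throughout the kappa V array. Of the 102 V segments not marked as pseudogenes, 77 were called in at least 1 library and 25 in all 6, against 13 and 6 of the 60 pseudogenes. Called were 29, 51 and 65 intact V segments in untreated replicates 1, 2 and 3, and 6, 11 and 11 pseudogenes. In DTx replicates 1, 2 and 3 they were 46, 66 and 74 against 10, 11 and 11. The share of intact segments called was 2.71 to 3.96 times the pseudogene share in the 6 deposited lists and 1.99 to 3.31 times in the equal-length lists, so that it was the higher one in each library. In the deposited lists the intact share was also the higher one in each of 4 stretches of equal length along the V array, in each library. The stretch nearest to the J segments has only 6 pseudogenes, of which 0 were called. The 6 pseudogenes called in all 6 libraries, named after their values were seen, were Igkv14-126, Igkv11-114, Igkv15-101, Igkv13-82, Igkv4-77 and Igkv13-76. For Igkv13-82 and Igkv13-76 the strongest peak within 1 kb lay beside the segment in all 6 libraries and did not overlap it. How well short reads can be placed in these related sequences was not tested.

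**Figure D1:**
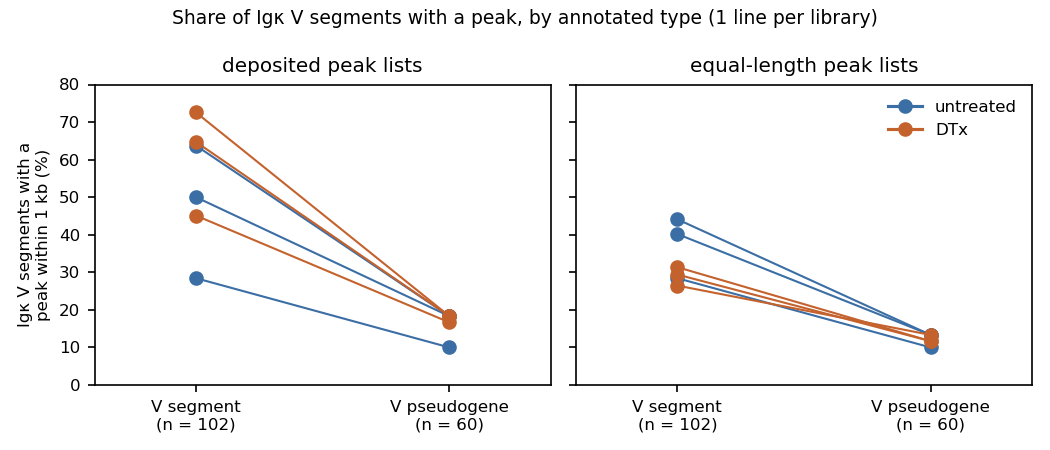
Share (%) of kappa V segments with a peak within 1 kb, for segments not marked as pseudogenes (n = 102) and for pseudogenes (n = 60), in the deposited (left) and equal-length (right) lists. Each line is 1 library, blue for untreated and orange for DTx. All 12 lines fall from left to right, with pseudogene shares of at most 18.3% and intact shares of at least 26.5%.

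V segment families, told by the number before the dash in the symbol, differed in how many members were called. All 3 members of Igkv10 were called in all 6 libraries, as was the only member of Igkv19, Igkv19-93. Igkv4, the largest family with 33 members of which 28 are intact, had between 11 and 23 members called per library and 8 called in all 6. Igkv13, whose 19 members include 2 that are intact, had 2 or 3 called per library. Its called members were Igkv13-82, Igkv13-76 and Igkv13-84, and the strongest peak within 1 kb lay beside each of them, not over it. Igkv3 and Igkv5, both mostly intact, differed in how often their members were called. Of the 13 members of Igkv3, 9 are intact, between 0 and 3 were called per library and 0 in all 6. Of the 6 members of Igkv5, 5 are intact, between 1 and 5 were called per library and 0 in all 6. The Igkv5 count of 1 was in untreated replicate 1, which has the shortest list. Over all members and libraries, 63.9% of the possible calls were made in Igkv5 and 10.3% in Igkv3. The Igkv3 members lie together at the end of the array nearest to the J segments, from Igkv3-12-1 to Igkv3-1. The Igkv5 members, from Igkv5-48 to Igkv5-37, lie farther from the J segments, so family and position cannot be told apart here. The 1 member each of Igkv16 and Igkv18 was called in no library.

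Ranked by the number of libraries and then by the lowest percentile, the 12 leading kappa V segments were Igkv4-58, Igkv12-44, Igkv15-103, Igkv9-129, Igkv13-82, Igkv12-89, Igkv4-77, Igkv4-51, Igkv12-46, Igkv8-27, Igkv10-95 and Igkv11-114, all called in 6 of 6 libraries. They come from 8 families and lie between Igkv9-129 near the far end of the array and Igkv8-27. The peak ranked for Igkv13-82 (68979198 to 68979663) lay beside it in all 6 libraries, ending at 68978594 or earlier. Igkv12-44 (chromosome 6, 69814631 to 69815100) lay under a peak at the 72.6th, 79.6th and 76.0th percentile in untreated replicates 1, 2 and 3 and at the 60.1st, 83.4th and 81.4th in DTx replicates 1, 2 and 3. Igkv4-58 (69500254 to 69500758) lay under one at the 66.7th, 76.9th and 77.7th percentile in untreated and the 66.4th, 74.9th and 73.8th in DTx replicates 1, 2 and 3. Both peaks stood above the middle of every list. Igkv9-129 (67839793 to 67840266), close to the end of the array farthest from Igkc, stood at the 59.9th, 55.1st and 78.4th percentile in untreated and the 72.3rd, 77.7th and 78.1st in DTx replicates 1, 2 and 3. Its fold enrichment over the background, as the authors' lists give it, ran from 6.34 to 23.5, the higher values being in the narrow-mode lists. The fold of the 3 Igkv10 members ran from 3.21 to 11.4, and Igkv10-94 was at or below the 34.0th percentile in every library.

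Peaks in the kappa interval were frequent but mostly weak. The interval from 50 kb before the first to 50 kb after the last kappa segment held 70, 102 and 169 peaks in untreated replicates 1, 2 and 3 and 106, 150 and 178 in DTx replicates 1, 2 and 3. The median percentile of these peaks lay between 25.3 and 34.3 in the 6 lists, where the median of a whole list is near 50. Merged over the lists, the kappa peaks formed 208 regions. Every library had a peak in 55 of these (26.4%), against 44.1% of the regions of all chromosomes. Of the 191 regions inside the V array, 92 (48.2%) lay within 1 kb of a segment, a distance that takes in 12.8% of the array's length. Among the 44 regions there that every library had, 31 (70.5%) met this distance and 29 overlapped a segment. The regions called in 1 library only numbered 47, of which 11 (23.4%) lay within 1 kb of a segment. Agreement between libraries was thus found more often at the segments than between them.

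Of the V array regions that every library had, 13 lay beyond 1 kb from any segment. The strongest (chromosome 6, 70102349 to 70103655) lay 2.21 kb from Igkv8-31, with percentiles of 65.9, 78.1 and 81.4 in untreated and 78.5, 74.0 and 77.6 in DTx replicates 1, 2 and 3. The next (69662222 to 69663150), named after its values were seen, lay 12.9 kb from Igkv4-53, and its lowest percentile was 45.2. Among the regions of the V array, only that of Igkv4-58 had a higher lowest percentile than the one near Igkv8-31.

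Along the V array, stretch 4 of the 4, nearest to the J segments, had the fewest peaks in each deposited list although it has the most intact segments. The 4 stretches of 787 kb held 36, 37, 49 and 40 V segments, of which 19, 22, 27 and 34 were intact. Stretch 4 had 6, 17 and 27 peaks in untreated and 16, 24 and 32 in DTx replicates 1, 2 and 3. Stretch 3, with the most segments, had 20, 30 and 47 and 31, 42 and 51. Of the 34 intact segments of stretch 4, 3 were called in all 6 libraries, against 6 of 19, 8 of 22 and 8 of 27 in the other stretches. In the equal-length lists stretch 4 had the fewest peaks in 5 of 6 libraries, the exception being DTx replicate 3 with 14 there and 13 in stretch 1. The median density in stretch 4 was 2.60 peaks per 100 kb and in stretch 3 it was 4.64, beside 1.95 over chromosome 6 and 1.97 over all chromosomes in the deposited lists. In the equal-length lists the order turned for stretch 4, with a median of 1.27 there, 2.48 in stretch 3, 1.35 over chromosome 6 and 1.44 over all chromosomes.

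**Figure D2:**
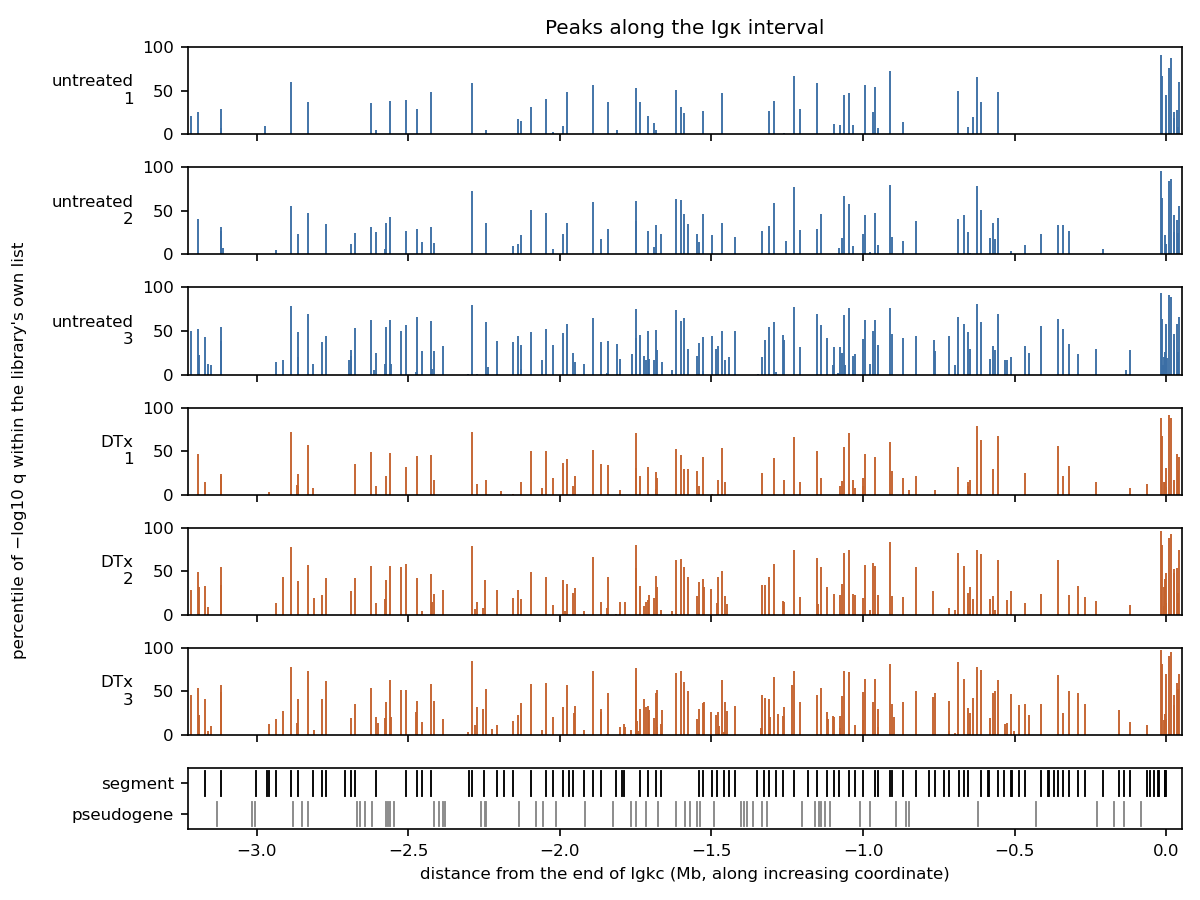
Each vertical line is a peak of 1 library in the kappa interval, placed by its distance (Mb) from the end of Igkc, with its percentile of −log10 q within its own list as height. The bottom track shows the segments, with pseudogenes in grey. Peaks are spread over the array in all 6 libraries, thin out towards the J segments and are tallest around the J and C segments at the right.

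Around the J and C segments the peaks were denser and included the strongest of the locus. The gap between Igkv3-1 and Igkj1 (18.4 kb) held 2 peaks in every equal-length list and 2 to 5 in the deposited ones. The flank of 50 kb after Igkc held 7 to 9 peaks in the deposited lists, a median density of 16 per 100 kb. The 3 leading regions of the whole interval lay in these 2 stretches, and each was called in all 6 libraries and all 6 equal-length lists. No file labels them as regulatory elements, and they are given by position.

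The leading region lay in the gap (chromosome 6, 70709249 to 70710001), 5.07 kb from Igkv3-1, where elements that restrain joining to the nearest V segments are known to lie. It stood at the 90.9th, 95.4th and 93.4th percentile in untreated and the 87.7th, 96.6th and 97.4th in DTx replicates 1, 2 and 3. A narrower region in the same gap (70714351 to 70714590), 7.97 kb from Igkj1 and inside the non-coding RNA gene Gm46961, stood at the 66.6th, 64.3rd and 64.2nd and the 67.8th, 79.7th and 81.5th percentile. Both were called in each library of each group.

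Beyond Igkc, in the direction in which the kappa enhancers outside the gene lie, a region 8.5 kb from it (70735249 to 70736164) stood at the 76.5th, 83.9th and 90.8th percentile in untreated and the 90.9th, 88.4th and 90.6th in DTx replicates 1, 2 and 3. A further region 16.9 kb from Igkc (70743676 to 70744484) stood at the 87.1st, 86.7th and 89.4th and the 87.6th, 92.6th and 95.4th. Both lie inside the non-coding RNA gene Gm30211. A weaker region (70768672 to 70769193), named after its values were seen and with a lowest percentile of 43.7, lay inside Rpia, a gene of the pentose phosphate pathway that follows the locus.

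The J segments, which supply the last residues of the variable domain, had only weak peaks within 1 kb. Igkj5 and Igkj4 were called in all 6 libraries through 1 shared region (70723530 to 70725026), at the 0.286th, 22.4th and 25.6th percentile in untreated and the 14.4th, 41.1st and 23.7th in DTx replicates 1, 2 and 3. Igkj3 was called through this region in 3 untreated and 2 DTx libraries, and Igkj1 and Igkj2 in untreated replicate 3 only. Only in untreated replicate 3 did the peak overlap J segments. In the other libraries it began past the end of Igkj5 (70723923), at 70724023 or later. The intron between the J segments and Igkc is where the intronic enhancer lies. Both the shared region and the one called at Igkc (70725668 to 70728469) reach into it. Igkc (70726435 to 70726754), the constant part of every kappa chain, was called in all 6 libraries at the 44.4th, 12.3rd and 58.3rd percentile in untreated and the 30.3rd, 48.0th and 69.5th in DTx replicates 1, 2 and 3. The peak behind these values overlapped Igkc in untreated replicates 2 and 3. In the other libraries it lay in the intron and ended before Igkc began, at 70726411 or earlier. Its fold in the authors' lists ran from 2.5 to 5.2 with a pileup (read coverage) of 22.4 to 130. At Igkv4-58 a similar pileup of 17.5 to 133 went with a fold of 7.26 to 18.5.

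**Figure D3:**
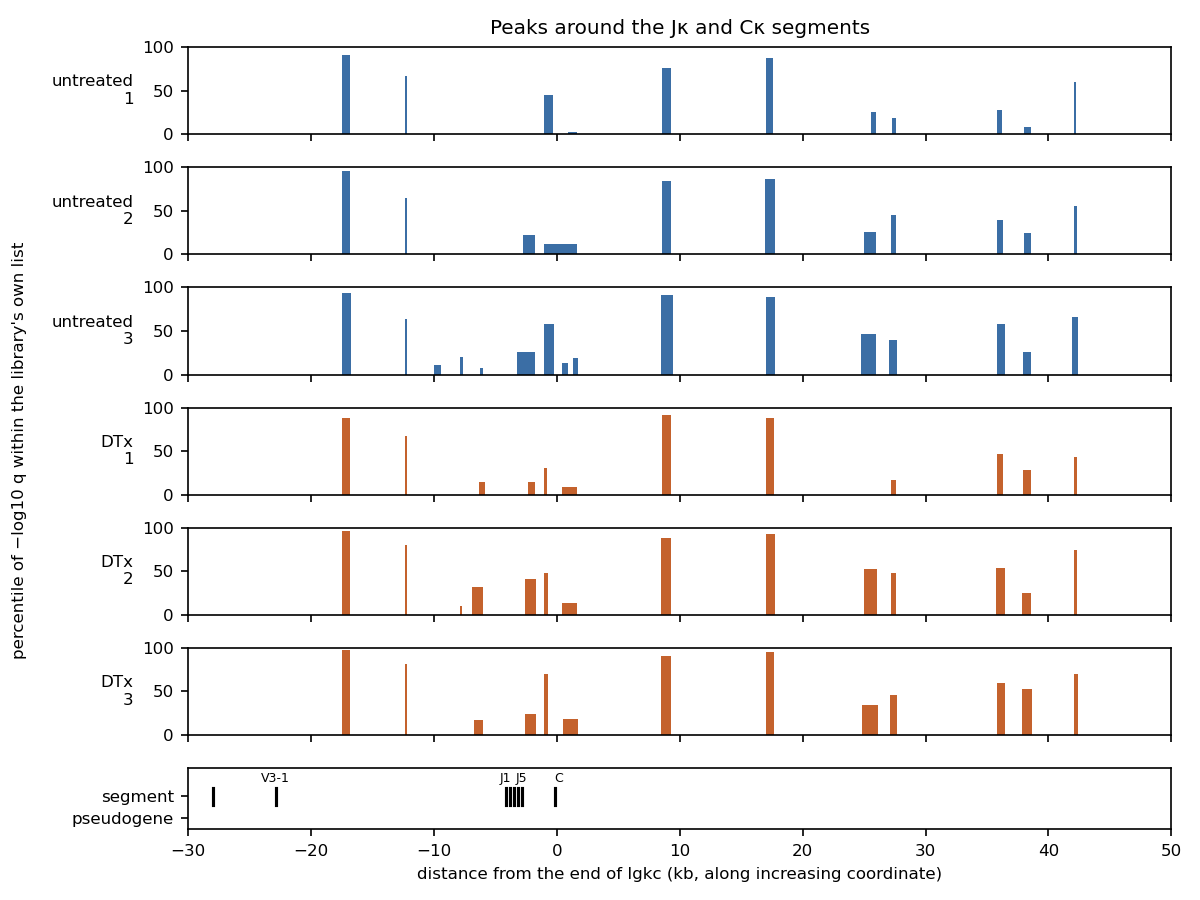
Bars span the peaks of each library from 30 kb before to 50 kb after the end of Igkc (x axis, kb), with the percentile of −log10 q within the list as height. The tall bars in all 6 libraries are the region 5.07 kb from Igkv3-1 and the regions 8.5 and 16.9 kb after Igkc. The bars at and just after the J segments are low.

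At the lambda locus 8 of the 12 segments were called in all 6 libraries, 2 in some and 2 in none. The pseudogenes Iglc4 and Iglj4 were called in none. Iglc1, a constant segment, was called in 1 untreated and 1 DTx library, and its partner Iglj1 in 2 and 2. Iglc3 with Iglj3 and Iglj3p, and Iglc2 with Iglj2, were called in all 6. Iglc2 and Iglj2 shared a region (chromosome 16, 19198573 to 19200968) at the 63.3rd, 52.9th and 79.97th percentile in untreated and the 78.4th, 64.7th and 70.5th in DTx replicates 1, 2 and 3. Iglc3 was called through a region 247 bp away, between the 49.7th and the 80.5th percentile. Iglj3 and Iglj3p shared a region between the 37.8th and the 66.1st. The peaks called for Iglc2 and Iglc3 stood higher in their lists than the one called for Igkc in 6 of 6 libraries. Many of these peaks lay beside the constant segments. The Iglc3 peaks did not overlap Iglc3. In untreated replicate 1 and DTx replicates 1 and 3 the Iglc2 peak began past the end of Iglc2 (19198852).

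The 3 lambda V segments were all called in all 6 deposited lists. Iglv2 stood at the 35.7th, 39.1st and 61.9th percentile in untreated and the 43.6th, 59.8th and 43.9th in DTx replicates 1, 2 and 3. Iglv1 stood at the 6.93rd, 16.4th and 48.0th and the 23.7th, 24.5th and 47.5th. Iglv3 stood at the 16.01st, 36.7th and 46.0th and the 8.0th, 33.9th and 30.7th. In equal-length lists Iglv2 was called in all 6, Iglv1 in 3 untreated and 2 DTx libraries and Iglv3 in 3 and 0. Of all genes, 0.222% were called in 3 untreated and 0 DTx libraries there. The −log10 q of Iglv3 was 2.83, 6.54 and 30.1 in untreated replicates 1, 2 and 3, with cuts at 1.02, 2.99 and 19.7. In DTx replicates 1, 2 and 3 it was 5.04, 5.87 and 6.06, with cuts at 9.26, 6.0 and 8.1.

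The strongest lambda peaks did not overlap the segments. The interval with 50 kb on each side held 19, 22 and 27 peaks in untreated and 22, 25 and 31 in DTx replicates 1, 2 and 3. Of the 32 regions they formed, every library had 17 (53.1%). The leading region (chromosome 16, 19178847 to 19180172), 14.8 kb from Iglc4, stood at the 96.2nd, 98.7th and 98.7th percentile in untreated and the 97.9th, 98.7th and 99.6th in DTx replicates 1, 2 and 3. A second (19152492 to 19153435), 41.6 kb from Iglc4, had a lowest percentile of 89.5. The third (19052518 to 19053330), 8.42 kb from Iglc1, had a lowest of 83.4, and the fourth (19245695 to 19246493), 4.02 kb from Iglv3, one of 79.4. The leading lambda region stood higher in its list than the leading kappa region in 6 of 6 libraries.

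**Figure D4:**
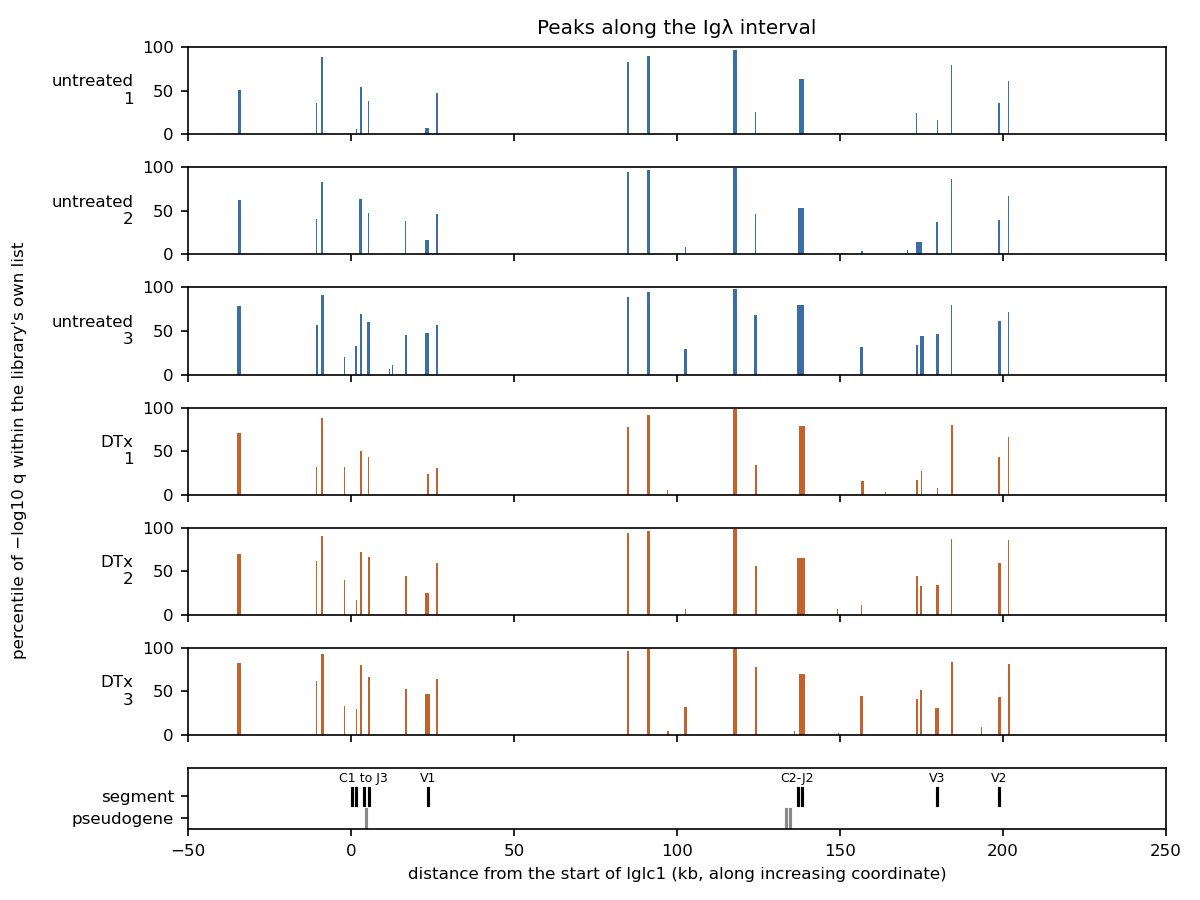
Bars span the peaks of each library along the lambda interval, by distance (kb) from the start of Iglc1, with the percentile of −log10 q within the list as height. The tallest bars of each library lie at the region 14.8 kb from Iglc4, and segments are marked in the bottom track with pseudogenes in grey.

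Between the groups, 0 of 180 segments were DTx-only (called in the whole DTx group and absent from all untreated lists) and 0 were untreated-only in the deposited lists. Of all genes, 0.0741% were DTx-only and 0.014% untreated-only, so the count of 0 is near the background. The number of segments called was 48, 74 and 92 in untreated and 67, 90 and 99 in DTx replicates 1, 2 and 3, and the groups overlapped. Untreated libraries had 71.3 ± 22.1 segments and DTx libraries 85.3 ± 16.5 (SD, n = 3 in each group, two-sided exact permutation p = 0.6, Benjamini-Hochberg adjusted 0.7 over 4 measures). A comparison of 3 against 3 libraries cannot give a p below 0.1.

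Untreated libraries had 114 ± 50.5 peaks in the kappa interval and DTx libraries 145 ± 36.3 (SD, n = 3 in each group, exact permutation p = 0.4, adjusted 0.7). The order of this number over the 6 libraries was exactly the order of the lengths of their lists. Per 1000 peaks of the list it was 1.9, 2.4 and 2.99 in untreated and 2.37, 2.67 and 2.93 in DTx replicates 1, 2 and 3. The bases under these peaks came to 64163 ± 27855 in untreated and 74252 ± 21093 in DTx libraries (SD, n = 3 in each group, exact permutation p = 0.7, adjusted 0.7), with a mean peak width between 478 and 631 bp per library. In the lambda interval there were 22.7 ± 4.04 peaks in untreated and 26.0 ± 4.58 in DTx libraries (SD, n = 3 in each group, exact permutation p = 0.5, adjusted 0.7). None of the 4 differences exceeded the spread between libraries. The differences of DTx minus untreated did not hold within both list layouts: for segments the value was 33.5 among the 4 broad lists (2 against 2) and -25 between the 2 narrow ones, and for kappa peaks it was 78 and -63.

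In the equal-length lists the direction turned. The number of segments called was 48, 60 and 62 in untreated and 47, 45 and 45 in DTx replicates 1, 2 and 3, and the groups did not overlap, by 1 segment. Untreated libraries had 56.7 ± 7.57 segments and DTx libraries 45.7 ± 1.15 (SD, n = 3 in each group, exact permutation p = 0.1, which is the least this design can give, adjusted 0.4 over 4 measures). Split by list layout, a choice made after seeing the data, the difference was -9 segments among the broad lists and -15 among the narrow ones. The share of all genes with a peak within 1 kb of a gene end did not overlap either, at 30.2%, 30.3% and 30.6% in untreated and 29.1%, 29.6% and 29.5% in DTx replicates 1, 2 and 3. The share of segments was 26.7%, 33.3% and 34.4% against 26.1%, 25.0% and 25.0%. Whether the segments differ more than all genes do was not tested. The kappa interval held 70, 82 and 82 against 67, 63 and 71 peaks (exact permutation p = 0.2, adjusted 0.4, n = 3 each) and the lambda interval 19, 18 and 18 against 17, 17 and 19 (exact permutation p = 0.6, adjusted 0.6, n = 3 each).

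**Figure D5:**
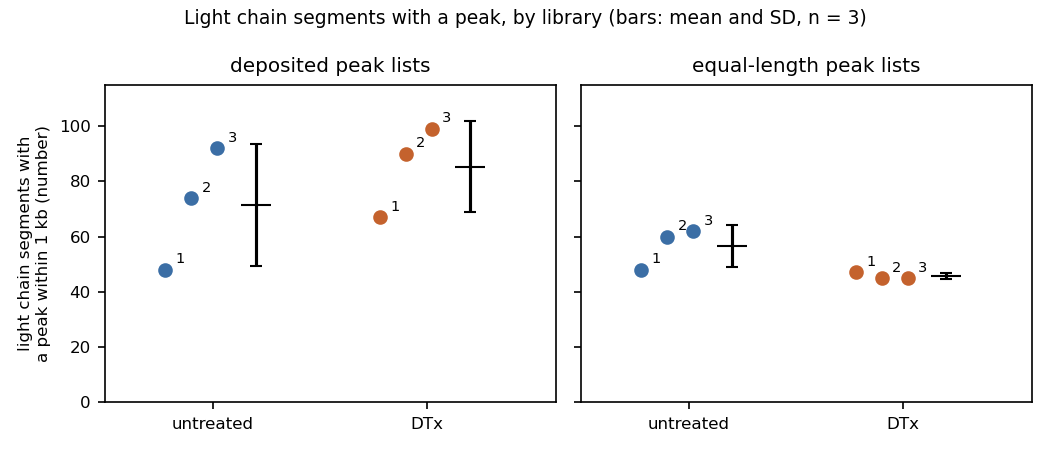
Number of light chain segments with a peak within 1 kb in each library (points, labelled by replicate), with the group mean and SD (n = 3) beside them, in the deposited (left) and equal-length (right) lists. The groups overlap on the left, where counts run from 48 to 99, and on the right the DTx libraries lie at 45 to 47 and the untreated ones at 48 to 62.

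Apart from Igkv8-21, the segments named for a difference had peaks below the middle of their lists. In the deposited lists 10 of the 180 segments were called in at least 2 more DTx than untreated libraries and 0 the reverse. Over all genes the shares were 0.939% and 0.15%, leaning the same way but with a smaller DTx share than the segments had. Igkv2-137, Igkv3-7, Igkv4-50 and Igkv11-125 were each called in 3 DTx libraries and in untreated replicate 3, which has the longest untreated list. Igkv2-137, the V segment farthest from Igkc, stood at the 43.5th percentile there and at the 14.4th, 32.6th and 41.0th in DTx replicates 1, 2 and 3. Igkv6-13 and Igkv3-5 were called in 2 DTx and 0 untreated libraries, at or below the 35.8th percentile. In the equal-length lists 8 of the 180 segments differed by at least 2 libraries, all with more untreated ones. Of all genes 1.14% had at least 2 more untreated libraries, again a smaller share, and 0.334% at least 2 more DTx libraries. Whether the segments differ from all genes in these shares was not tested. Of the 8 segments, Igkv6-32, named after its values were seen, and Iglv3 were untreated-only. Igkv8-21, also of the 8 and named after its values were seen, was called in 2 untreated and 0 DTx libraries there. It stood at the 55.3rd percentile in untreated replicate 3. No segment was DTx-only, and of all genes 0.222% were untreated-only and 0.028% DTx-only. Igkv6-32 and Iglv3 had a deposited peak in every library. Igkv6-32 (chromosome 6, 70074024 to 70074584) stood at the 7.69th, 25.5th and 48.7th percentile in untreated and the 14.7th, 25.0th and 31.3rd in DTx replicates 1, 2 and 3.

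By regions, 0 of the 208 kappa and 0 of the 32 lambda regions were DTx-only or untreated-only in the deposited lists, where 0.705% of all regions were DTx-only and 0.0242% untreated-only. In equal-length lists every library had 38 of 118 kappa and 15 of 21 lambda regions, against 53.7% of all regions. There 1 kappa and 1 lambda region were untreated-only and 0 DTx-only, against 0.579% and 0.367% of all regions. These counts are too small to be read against the background.

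Of 36 genes of recombination, locus control and receptor assembly, 25 had a peak within 1 kb of a gene end in all 6 libraries, 6 in some and 5 in none. The shares over all genes, given above, were 28.6% in all 6 and 62.4% in none. Of the 36, 0 were DTx-only or untreated-only, beside 0.0741% and 0.014% of all genes. Among those called in all 6 were Prkdc and Xrcc4 of DNA end joining, at the 99.0th and the 97.5th percentile or above. Some factors that bind the kappa enhancers were there too, with Tcf3 (E2A) at the 98.4th, Irf4 at the 76.2nd, Spi1 (PU.1) at the 62.0th and Pax5 at the 73.2nd percentile or above. Not all factors of the list were as strong. Tcf12 and Spib were called in all 6 libraries, with lowest percentiles of 26.8 and 14.7. Ikzf1 and Pou2f2 were each called in 3 untreated and 2 DTx libraries. Pou2af1, the co-activator of octamer factors, stood at the 90.5th or above. The recombinase genes Rag1 and Rag2 had a peak in 0 untreated and 1 DTx, and in 1 and 1 libraries, at or below the 9.44th percentile. Dntt (terminal transferase), the surrogate light chain genes Igll1, Vpreb1 and Vpreb2, and the cohesin gene Rad21 had none in any library. Vpreb3, which binds newly made light chains, had one in all 6.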

How the data were processed

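ATAC-seq libraries of 3 untreated and 3 DTx samples were used. Reads were processed with Trim Galore 0.4.3, Bowtie2 2.3.2 and MACS2 2.1.1 on mm10, per the submitters' processing notes. How duplicates and the ends of reads were treated is not given in the sources used here. Per the file headers, the deposited lists hold the pileup (coverage signal) and the fold enrichment (a ratio) of each peak, as the authors made them. The headers of the deposited −log10 p and −log10 q columns are damaged, and they were told apart by order and value. Each list lost its 2 peaks on mitochondrial DNA.

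Percentiles, overlaps, merged regions (at least 1 bp) and exact permutation tests over the 20 relabellings were computed with pandas 2.3.3, SciPy 1.17.1 and NumPy 2.4.6, run under Python 3.11.15. The interval steps were tested on simulated data. Coordinates are 1-based. Gene names, types and positions come from the RefSeq table of GRCm38.p6, the same build as mm10, which gives no strand. Shares of genes were computed genome-wide.

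The members and lists were chosen with earlier results of these data known. Named were all J, C and lambda segments, up to 12 kappa V segments by number of libraries and lowest percentile, up to 6 segments per direction with a difference of at least 2 libraries, ranked in the same way, and up to 10 kappa and 4 lambda regions, of which those that differ from named segments are described. Alternatives were the equal-length lists, stronger peaks, each list mode, each library left out, other windows and flanks, and blocks by replicate number. An item of the marker lists is not reported here.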

Additional observations from a re-analysis of the deposited data

How the results depend on the processing

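Values are DTx minus untreated. In the equal-length lists the differences turned to -11 segments called, -11 peaks and -7564 bases in the kappa interval, and -0.667 peaks in the lambda interval. Restricted further to the broad mode, a choice made after seeing the data, they were -9, -9, -1094 and -0.5, and in the narrow mode -15, -15, -20506 and -1. In the narrow-mode deposited lists (1 against 1, no test) they were -25, -63, -41254 and -5, while in the broad-mode deposited lists (2 against 2) they were 33.5, 78, 35762 and 7.5, each over 2 times the value from all 6 lists. Leaving out 1 library gave 2.33 to 24.3 segments, 9.17 to 58.7 kappa peaks, 0.833 to 5.5 lambda peaks and -3877 to 23977 bases, the value of -3877 being the one without untreated replicate 1. The other windows, flanks, the stricter −log10 q and the measures per list length kept the deposited direction. Segments called in 1 group only numbered 0 in the deposited lists, 2 in the equal-length lists, 16 among the broad lists and 31 among the narrow ones, and 0 to 4 with 1 library left out (4 without untreated replicate 3, 4 without DTx replicate 1 and 2 without DTx replicate 2), where fewer libraries loosen the call. The cause of these shifts was not tested.

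Same-numbered libraries correlated at 0.204, -0.0217 and 0.147 in their deviations over all regions. Differently numbered pairs of an untreated and a DTx library ran from -0.238 to 0.103, so 0.204 and 0.147 lay above all of those. The numbers were not taken as pairs in the tests above. With the replicate number as a block the differences stay 14 segments, 31 kappa peaks, 10090 bases and 3.33 lambda peaks (exact sign-flip p = 0.25, 0.25, 0.5 and 0.25, where 3 pairs cannot give less than 0.25).

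Depth is unknown, and a missing peak does not show closed chromatin.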
